A study of Homo sapiens with 8 samples.

Results

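The baseline H3K4me3 landscape described here is the set of regions that were called in every vehicle-treated library of MM1S cells. MM1S is an established human multiple myeloma cell line, so it stands for malignant plasma cells of a single origin. The members were chosen by the calls themselves: the lists of the 5 libraries labelled DMSO were joined wherever regions on chromosomes 1 to 22 and X overlapped by at least 1 bp, and a merged region was kept if all 5 lists held a call in it. This gave 14097 baseline regions out of 40806 merged regions of the DMSO lists (34.5%). All 8 lists of the series together form 50523 merged regions. The other 3 libraries, whose cells received KDM5-C70 (50 uM, 7 days), were not used. The labels give DMSO as the vehicle and state no time for it, and they do not say whether the 5 libraries came from separate cultures. The spread between them may therefore be technical.

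H3K4me3, trimethylation of lysine 4 on histone H3, is written by SET1 and MLL methyltransferase complexes and removed by demethylases such as the KDM5 family. In mammalian cells it marks nucleosomes on both sides of active or poised transcription start sites, most often at CpG islands, and the start site itself lies in a stretch with few nucleosomes. Unusually wide H3K4me3 domains are known from genes that define a cell's identity. No gene is assigned below, because the regions are on GRCh37 and the annotation at hand is GRCh38.p14. Regions are named by chromosome, start and end, counted from 1, and plasma cell marker genes could not be checked against the label.

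The 5 libraries did not stand on one level. The lists of DMSO 1 and 2 held 20998 and 15323 regions, and those of DMSO 3, 4 and 5 held 28195 to 32376. The baseline set was bounded mainly by DMSO 2, the shortest list. Of 17019 merged regions called in the other 4 lists, DMSO 2 held 82.8%. The other libraries each held 99.6 to 99.9% of the regions called in the remaining 4. Just outside the set lay 3046 regions called in 4 lists, of which 2922 lacked only DMSO 2. A further 7061 regions were called in DMSO 3, 4 and 5 and in neither DMSO 1 nor DMSO 2, so a set drawn from those 3 lists alone held 24157 regions. Regions with a call in 1 list numbered 11566. The labels name no batch that separates DMSO 1 and 2 from the others, and depth is unknown for all libraries. What sets these 2 libraries apart was not tested. Because the calls chose the members, what follows is a description without tests.

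Baseline regions were the wide part of every list. In DMSO 1 the median called width, which is the number of bases the library called in a merged region, was 1029 bp in baseline regions and 350 bp in regions called in 4 lists. In DMSO 3 it was 1460 bp in baseline regions, 793 bp in regions called in 4 lists, and 288 bp in regions that were in no other list. The baseline set took up 96.9% of all bases called in DMSO 2, 85.9% in DMSO 1 and 66.7 to 73.1% in DMSO 3, 4 and 5. Regions outside the set were mostly not close to it, but baseline regions were mostly not close to each other either. Of the regions called in 4 lists 7.42% lay within 5 kb of a baseline region, with a median distance of 42943 bp. Between a baseline region and the nearest other one, these values were 8.58% and 37359 bp. Of the regions called in 1 list 2.78% lay within 5 kb of the set and 43.0% more than 100 kb away. Among the 14097 baseline regions, 3105 had no other within 100 kb. Calls that overlapped a baseline region had been merged into it and are not counted here.

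Over the baseline set, the mean called width of a region across the 5 libraries had a median of 1211 bp. Of the regions, 5% were narrower than 540 bp and 5% wider than 2185 bp, and the full range ran from 169 to 3964 bp. The median was 1029 bp in DMSO 1, 826 bp in DMSO 2, 1460 bp in DMSO 3, 1336 bp in DMSO 4 and 1374 bp in DMSO 5 (mean 1205 ± 267 bp, SD, n = 5). DMSO 1 and 2 thus lay below the other libraries, and this held region by region: in 11992 regions (85.1%) both were narrower than each of DMSO 3, 4 and 5. DMSO 2 was the narrowest library in 84.5% of the regions.

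**Figure D1:**
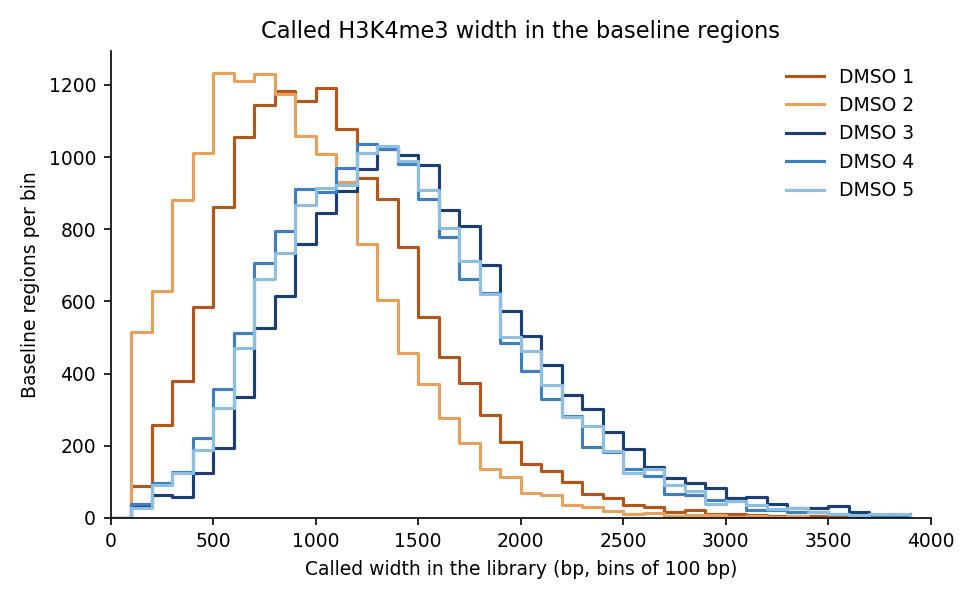
Number of baseline regions (vertical axis) per 100 bp bin of called width in bp (horizontal axis), with 1 line per DMSO library and the few regions over 4000 bp left out. The lines of DMSO 1 and 2 peak at smaller widths (medians 1029 and 826 bp) than those of DMSO 3, 4 and 5 (medians 1336 to 1460 bp).

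The narrower calls lay inside the wider ones. Within baseline regions, 98.8% of the bases called in DMSO 2 were also called in DMSO 3, and 57.4% of those called in DMSO 3 were called in DMSO 2. In the 13430 regions with a single call in every library, the left end of DMSO 2 lay a median of 253 bp inside that of DMSO 3 and its right end 254 bp inside. DMSO 1 lay 159 and 160 bp inside, and DMSO 4 and 5 between 26 and 38 bp. The medians of the 2 ends were almost equal in each library. They were taken separately and without strand, so they do not show that both ends of a single region moved in alike. Bases called in all 5 libraries summed to 11.8 Mb, which is 51.8% of the 22.8 Mb called in any library within the set. In 43 regions no base was called in all 5, since overlapping calls had chained them together.

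The order of regions by width was kept better than the widths. Across the 14097 regions, Spearman's rho of called width was 0.93 to 0.94 between DMSO 3, 4 and 5, 0.85 between DMSO 1 and 2, and 0.73 to 0.83 between libraries of these 2 sets. The libraries share a cell line and a caller, so these are descriptions. The authors' fold enrichment followed the regions far less, with rho between 0.02 and 0.30 for pairs of libraries and between 0.04 and 0.07 with the called width within a library. The relative spread of width over the libraries fell with width. The median coefficient of variation (SD over mean) was 36.4% in the 546 regions with a mean width under 500 bp, 28.7% in the 4145 regions from 500 to under 1000 bp, 20.9% in the 8228 from 1000 to under 2000 bp, 18.9% in the 1115 from 2000 to under 3000 bp and 18.2% in the 63 of 3000 bp or more. The class from 1000 to under 2000 bp held 65.0% of the called bases, and the widest class 1.16%.

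Each called region carries inner blocks, which are narrower stretches inside the broader call. Blocks of 1 bp only mark the ends of a region and were left out, and the others are called inner segments. Inner segments made up 75.03% of the bases called in baseline regions in DMSO 1, 70.5% in DMSO 2, 83.5% in DMSO 3, 79.5% in DMSO 4 and 81.5% in DMSO 5 (mean 78.0 ± 5.23%, SD, n = 5). The low values were again those of DMSO 1 and 2. At least 1 inner segment was present in all 5 libraries in 13420 regions (95.2%), and in 13295 regions (94.3%) some base lay in an inner segment of every library. Regions without a segment were 4.05% of the set in DMSO 2 and 0.05 to 0.79% in the other libraries (mean 1.09 ± 1.68%, SD, n = 5). In the larger set of 17020 regions called in the 4 libraries other than DMSO 2 that mean was 2.49%, and in the set drawn from DMSO 3, 4 and 5 alone it was 6.90%.

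Regions with 1 and with several segments were about equally common. At least 2 segments were found in 51.0% of baseline regions in DMSO 1, 36.1% in DMSO 2, 53.3% in DMSO 3, 52.4% in DMSO 4 and 51.7% in DMSO 5 (mean 48.9 ± 7.19%, SD, n = 5). DMSO 2 alone was low, while DMSO 1 lay next to the other 3. At least 3 segments were found in 5.80% of the regions in DMSO 2 and in 10.8 to 11.7% in the others. The number of segments was less stable than the width. It was the same in all 5 libraries in 4454 regions (31.6%) and the same in DMSO 3, 4 and 5 in 58.1%. Of the regions with an identical number, 3056 had 1 segment in every library, 1335 had 2 and 62 had 3.

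Wider regions held more segments, and the segments covered less of them. Below 500 bp a region held 0.97 ± 0.07 segments, from 500 to under 1000 bp 1.17 ± 0.10, from 1000 to under 2000 bp 1.72 ± 0.12, from 2000 to under 3000 bp 2.57 ± 0.21 and at 3000 bp or more 3.75 ± 0.31 (mean and SD over 5 libraries). The mean share of called bases in segments fell over the same classes from 83.3 ± 4.75% to 82.6 ± 5.07%, 78.6 ± 5.14%, 70.4 ± 5.18% and 60.7 ± 7.18% (SD, n = 5). Its first step down was not seen in DMSO 4 and 5, but in each of the 5 libraries the share was lower in the widest class than in every other class. Single segments did not lengthen with the region beyond the middle class. Their median length was 338 ± 96.5 bp in the narrowest class, 611 ± 145 bp from 1000 to under 2000 bp and 416 ± 81.6 bp in the widest (SD, n = 5). Class and segment count both come from the same calls, so these values describe the calls and support no independent relation.

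**Figure D2:**
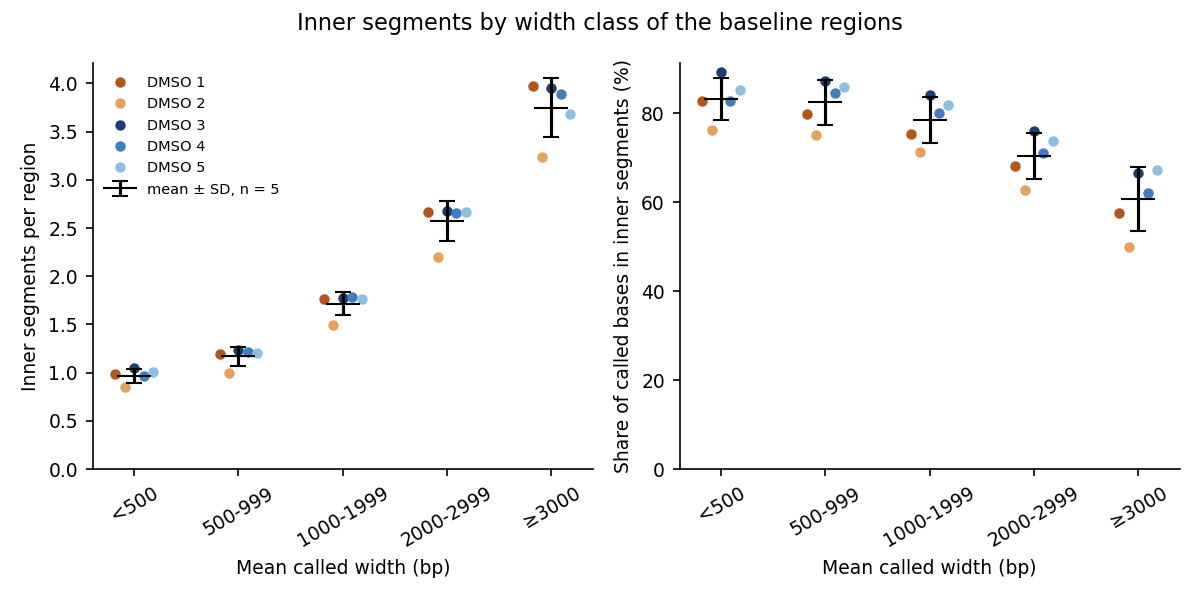
Inner segments per baseline region (left) and share of called bases in inner segments in % (right), by class of mean called width in bp, with 1 point per DMSO library and the mean ± SD over 5. Segments per region rise from 0.97 to 3.75 over the classes while the inner share falls from 83.3 to 60.7%, and DMSO 2 is the lowest library in every class of both panels.

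In the 3056 regions with 1 segment in every library, which had a median mean width of 806 bp, the segment was nearly the whole call. It took a median of 98.0 to 98.6% of the called bases, and the call reached past it by a median of 0 to 3 bp on either side. Their segment measured 476 bp at the median in DMSO 2, 599 bp in DMSO 1 and 807 to 901 bp in DMSO 3, 4 and 5.

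In the 1335 regions with 2 segments in every library, the gap between the segments recurred at nearly the same place. They were 9.47% of the set, while in each library taken on its own 30.3 to 42.3% of the set had 2 segments. Regions whose gap was absent, or joined by another, in some library were left out by this choice, which favours agreement in position. The 1335 regions had a median mean width of 1506 bp. The midpoint of the gap differed between 2 libraries by a median of 12.5 to 18.5 bp over the 10 pairs, and lay within 100 bp in 90.3 to 98.6% of the regions. Pairs that join DMSO 1 or 2 to the others, at 15 to 18.5 bp, were hardly farther apart than pairs within DMSO 3, 4 and 5, at 12.5 to 13.5 bp, although the region ends of these libraries differed by far more. The range of the midpoint over all 5 libraries had a median of 37 bp. Gaps of all 5 libraries had bases in common in 1256 regions (94.1%), with a median of 162 shared bp.

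The length of that gap followed the library. It had a median of 229 bp in DMSO 1, 264 bp in DMSO 2, 192 bp in DMSO 3, 215 bp in DMSO 4 and 212 bp in DMSO 5. The libraries with the narrowest regions therefore had the longest gaps around a common midpoint. From the left end, the gap lay at a median of 50.5 to 51.3% of the width of the call. Gaps that lay off the centre to either side alike would give the same median, so it does not show centring. With the call cut into 3 equal parts, the gap lay in the middle part in 70.8 to 76.8% of the regions. In 5% of the regions it lay left of 26.8 to 28.9% of the width, depending on the library, and in 5% right of 72.2 to 74.1%. The 2 flanking segments were unequal. The longer measured 544 bp at the median in DMSO 2 and 891 bp in DMSO 3, the shorter 263 and 546 bp, and the ratio of longer to shorter had a median of 1.57 to 1.88. The longer segment was on the same side in all 5 libraries in 971 regions (72.7%), on the left in 517 and on the right in 454. Strand is not part of the lists, so these sides have no orientation relative to a gene. In the 62 regions with 3 segments in every library, the middle segment was the shortest at the median, with 231 to 391 bp against 350 to 661 bp on the flanks. Region by region, the middle segment was the shortest in 40.3% in DMSO 2, 50% in DMSO 1 and 61.3% in DMSO 3, 4 and 5. It was the longest in 12.9 to 22.6%, depending on the library.

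**Figure D3:**
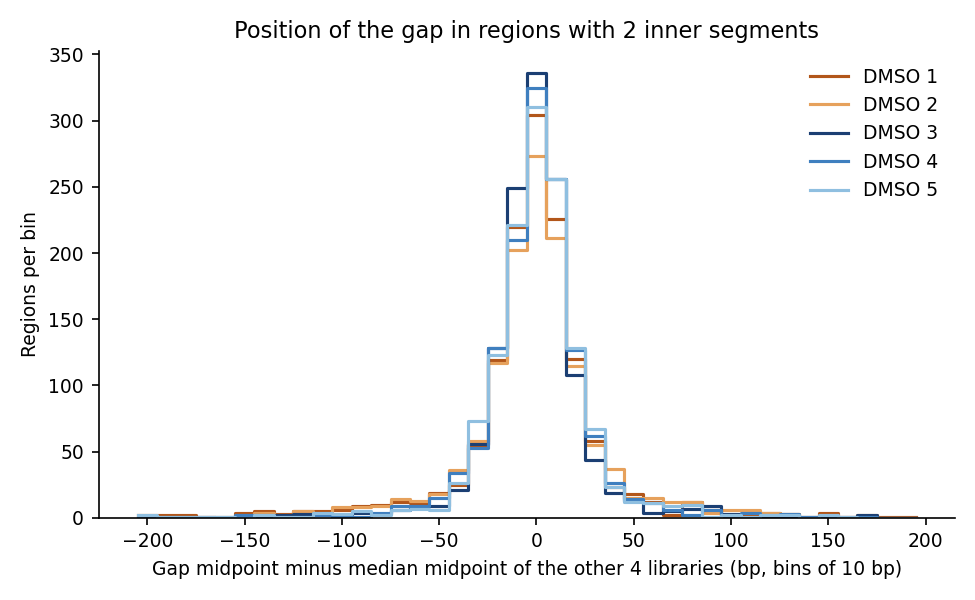
Midpoint of the gap between the 2 inner segments in each DMSO library minus the median midpoint of the other 4 libraries, in bp (horizontal axis, 10 bp bins), for the 1335 regions with 2 segments in every library, with the number of regions per bin on the vertical axis. All 5 lines peak at 0, and 84.0 to 92.7% of the regions lie within 50 bp of it, with 0.90 to 4.79% beyond the range shown.

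Wide regions were few and depended on the library. A mean called width of 3000 bp or more was reached by 63 regions. The narrowest of them measured 3001 bp and the widest region below the limit 2996 bp. Single libraries had 52 (DMSO 1), 24 (DMSO 2), 308 (DMSO 3), 163 (DMSO 4) and 201 (DMSO 5) regions of that width. Those of 3000 bp or more in every library numbered 7, and those in at least 1 library 364. Without DMSO 2 there were 109 such regions by mean width, without DMSO 3 there were 40, and in the set drawn from DMSO 3, 4 and 5 there were 192. Of the 100 widest regions of each library, 12 were shared by all 5, 43 by DMSO 3, 4 and 5, and 58 by DMSO 1 and 2.

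The widest region lay at chr8:128746633-128751285. It was called over 3834 bp in DMSO 1, 3392 bp in DMSO 2, 4286 bp in DMSO 3, 4128 bp in DMSO 4 and 4179 bp in DMSO 5 (mean 3964 ± 361 bp, SD, n = 5). It was split into 6, 2, 4, 4 and 5 inner segments in the same order, which covered 50.4 ± 21.8% of it (SD, n = 5). Its nearest baseline region was 55.2 kb away.

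Next came a region at chr15:69109730-69114293, with 3850, 3074, 4172, 4412 and 4185 bp in DMSO 1 to 5 (mean 3939 ± 523 bp, SD, n = 5). The region at chr7:92462003-92466157 followed with 3928, 2737, 4119, 4059 and 4127 bp (mean 3794 ± 596 bp, SD, n = 5). In both, DMSO 2 was the narrowest and DMSO 1 lay just below the other 3. A region at chr10:104401671-104406070 had 3485, 2904, 3889, 4400 and 4270 bp (mean 3790 ± 610 bp, SD, n = 5) and 4 to 5 segments in each library. One at chr4:149363009-149367082 had 3742, 2862, 3924, 3997 and 4017 bp (mean 3708 ± 485 bp, SD, n = 5), and no other baseline region lay within 708 kb of it. The means of these first 5 regions differ by less than their SDs, but the SDs include differences between libraries that the regions share. Compared within each library, the regions on chromosomes 8 and 15 were each wider than that on chromosome 4 in all 5. Every other pair changed order between libraries, so the rest of the order is not resolved.

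Steadiest among the 20 widest was a region at chr5:180615594-180619512, with 3251, 3186, 3458, 3751 and 3869 bp (mean 3503 ± 301 bp, SD, n = 5). It lay in a 100 kb window, from 180600001 to 180700000, that held 8 baseline regions. The region at chr6:15244978-15249692 split the libraries, with 2450 and 2137 bp in DMSO 1 and 2 against 4536, 4711 and 3881 bp in DMSO 3, 4 and 5. On the same chromosome, the region at chr6:108878770-108884096 kept no such order, since DMSO 2 with 3727 bp was wider than DMSO 4 with 2982 bp and DMSO 5 with 2674 bp.

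The other regions of the 20, in falling order of mean width from 3693 to 3423 bp, were chr8:29205404-29209767, chr16:54961465-54965530, chr2:28613070-28616902, chr4:141071610-141075672, chr17:36858394-36862810, chr2:92317784-92326058, chr1:92948202-92952453, chr18:46474547-46479326, chr4:15003130-15007053, chr17:42295472-42299472, chr15:31617678-31622075 and chr22:41840106-41844334. In 16 of the 20, DMSO 1 and 2 were both narrower than each other library. Inner segments covered 31.6 to 73.2% of the 20 regions (median 58.9%), with 3.2 to 5 segments on average. Their nearest baseline neighbour was 75.7 kb away at the median, and 2 of them had one within 5 kb.

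The region at chr2:92317784-92326058 was on this list only because of DMSO 1 and 2. It was called over 8174 and 7418 bp there and over 433, 523 and 771 bp in DMSO 3, 4 and 5 (mean 3464 ± 3966 bp, SD, n = 5). The groups of libraries do not overlap, and the direction is opposite to that of most regions. No base of it lay in an inner segment of every library. The baseline region before it was 1.06 kb away, and the next one after it 3149 kb away. Whether its place has a part in these widths was not tested.

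**Figure D4:**
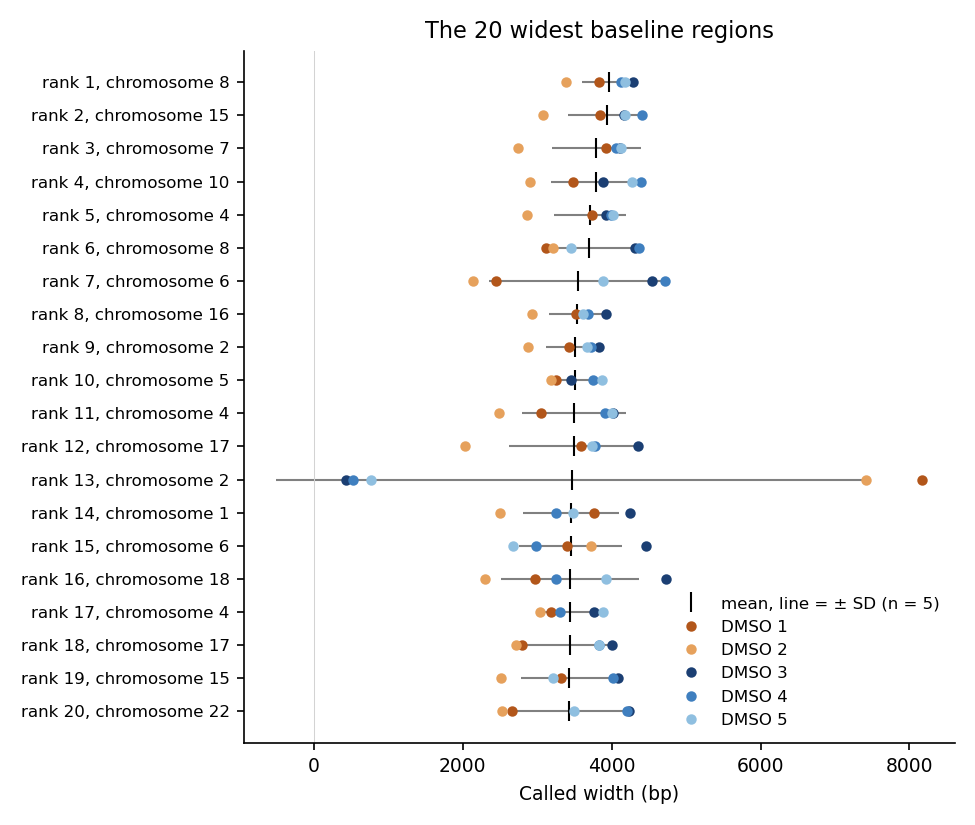
Called width in bp (horizontal axis) of the 20 baseline regions with the largest mean width, ranked from the top, with 1 point per DMSO library, a tick at the mean and a line for ± SD (n = 5). DMSO 2 is the lowest point in 17 of the 20 regions, and in rank 13 on chromosome 2 DMSO 1 and 2 lie at 8174 and 7418 bp while the other libraries lie between 433 and 771 bp.

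The other regions with the largest SD of width also separated DMSO 1 and 2 from the rest, in both directions. The region at chr16:46419506-46425246 had 4955 and 4950 bp in DMSO 1 and 2 and 159, 898 and 940 bp in DMSO 3, 4 and 5. The region at chr7:56438180-56442418 had 4239 and 4167 bp against 352, 146 and 2342 bp, with no base called in all 5 libraries. In both, DMSO 1 and 2 were nearly equal while DMSO 3, 4 and 5 differed several-fold among themselves. A second region of chromosome 2, chr2:92305570-92310959, had 4246 and 4205 bp against 745, 403 and 934 bp. The region at chr5:90675267-90680247 went the other way, with 669 and 563 bp against 4981, 3461 and 4093 bp.

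Of the 5 regions with the most segments, 3 were among the 20 widest. The region at chr20:57463468-57467878 had 6, 5, 6, 5 and 4 segments in DMSO 1 to 5 (mean 5.2) over a mean width of 3158 ± 366 bp (SD, n = 5). The regions named above at chr6:15244978-15249692 and chr17:42295472-42299472 each had a mean of 5, and that on chromosome 10 had 4.8. A region at chr1:149821599-149825092 had 6, 3, 4, 5 and 5 segments.

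At the other end, the 5 narrowest regions lay near the shortest length any list holds, which was 146 bp in every library. The region at chr10:42364635-42364858 had 154, 193, 193, 146 and 161 bp (mean 169 ± 22.2 bp, SD, n = 5) and no segment in DMSO 5. Those at chr4:49328940-49329243 and chr6:119558504-119558722 had means of 173 and 175 bp and lacked a segment in 2 libraries each. The regions at chr7:1076309-1076527 and chr5:140787600-140787815, with means of 183 and 187 bp, had 1 segment in every library.

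Most baseline regions stood alone on the scale of a promoter. The nearest other baseline region was a median of 37359 bp away. It was within 14213 bp for 25% of the regions and beyond 89532 bp for another 25%. A neighbour within 5 kb was present for 1209 regions (8.58%), and 3105 regions had none within 100 kb. In each list no 2 regions lay closer than 585 bp, so closer spacing within a library cannot be seen. The 76 pairs of baseline regions within 1 kb had a median gap of 723 bp, and 21 of them had a member under 500 bp in mean width.

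Regions with close neighbours were narrower. The median mean width was 883 bp in the 152 regions with a neighbour within 1 kb, 1020 bp in the 1057 with one between 1 and 5 kb, 1187 bp in the 3424 between 5 and 20 kb, 1241 bp in the 6359 between 20 and 100 kb and 1262 bp in the 3105 beyond 100 kb. The order was the same in each of the 5 libraries, with 534 to 859 bp from the first to the last class in DMSO 2 and 1068 to 1511 bp in DMSO 3. The share with at least 2 segments was 34.9 ± 7.49% and 42.1 ± 7.92% in the first 2 classes and 49.3 to 49.9% in the other 3 (SD, n = 5). Among regions under 500 bp, 24.0% had a neighbour within 5 kb, and among those from 2000 to under 3000 bp 4.84% did. The share did not go on falling, since 6 of the 63 regions of 3000 bp or more (9.52%) had one.

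The set was concentrated in part of the genome. Of 3049 windows of 1 Mb, 2355 (77.2%) held a baseline region, and 471 windows (15.4%) held 50% of all regions. The densest lay at chr16:30000001-31000000 with 45 baseline regions, where the 5 lists held 45 to 55 calls each. It was followed by 2 windows with 39 each, at chr11:65000001-66000000 and at chr17:7000001-8000000. The densest 100 kb windows held 9 regions each and lay at chr11:64000001-64100000, chr17:7100001-7200000 and chrX:153600001-153700000. These are counts in all 5 libraries, and the lists of single libraries held 9 to 13 calls in the same windows. Close neighbours were most numerous in the same window of chromosome 11, where 15 of 39 regions had one within 5 kb, and at chr8:145000001-146000000, where 14 of 32 did. These 2 windows were chosen after their values were seen.

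Long stretches without a baseline region lay on chromosomes 1, 9 and 16, which are known for large blocks of heterochromatin beside their centromeres. They ran from 121485471 to 142618534 on chromosome 1 (21.1 Mb), from 46844688 to 66457702 on chromosome 9 (19.6 Mb) and from 33964059 to 46385840 on chromosome 16 (12.4 Mb). Single lists still held 1 to 3 calls in each of the first 2 stretches and 2 to 18 in the stretch on chromosome 16. Unsequenced parts of the assembly were not told apart from sequence without a call, here or in the windows above.

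The most isolated region was at chr13:67803781-67805655, with its nearest baseline neighbour 4634 kb away. It was nevertheless of ordinary width, with 1177, 1201, 1822, 1707 and 1550 bp in DMSO 1 to 5 (mean 1491 ± 293 bp, SD, n = 5). The next most isolated lay at chr4:134070049-134070824 and chr4:62066460-62067918, chr2:79739425-79740461 and chrX:92927894-92929245, with means of 598 to 1241 bp and 3011 to 4055 kb to the nearest baseline region.

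Chromosomes differed far more in density than in width. No genome of this build was used, so density is per Mb between the first and the last call of any DMSO list, with any unsequenced bases included. Over all 23 chromosomes there were 4.78 baseline regions per Mb. Chromosome 19 had 15.5 per Mb, 3.24 times the overall value, followed by chromosome 17 with 10.6, chromosome 22 with 10.1 and chromosome 16 with 6.88. The lowest were chromosome 13 with 2.59, chromosome 4 with 2.71, chromosome 18 with 2.72 and chromosome X with 3.02. Chromosomes 17, 19 and 22 together held 15.1% of the set on 5.94% of the spanned length. Each single list placed chromosome 19 highest too, with 16.7 regions per Mb in DMSO 2, 20.8 in DMSO 1 and 24.8 to 27.2 in DMSO 3, 4 and 5. In the set drawn from DMSO 3, 4 and 5 the ratio for chromosome 19 was 2.69.

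**Figure D5:**
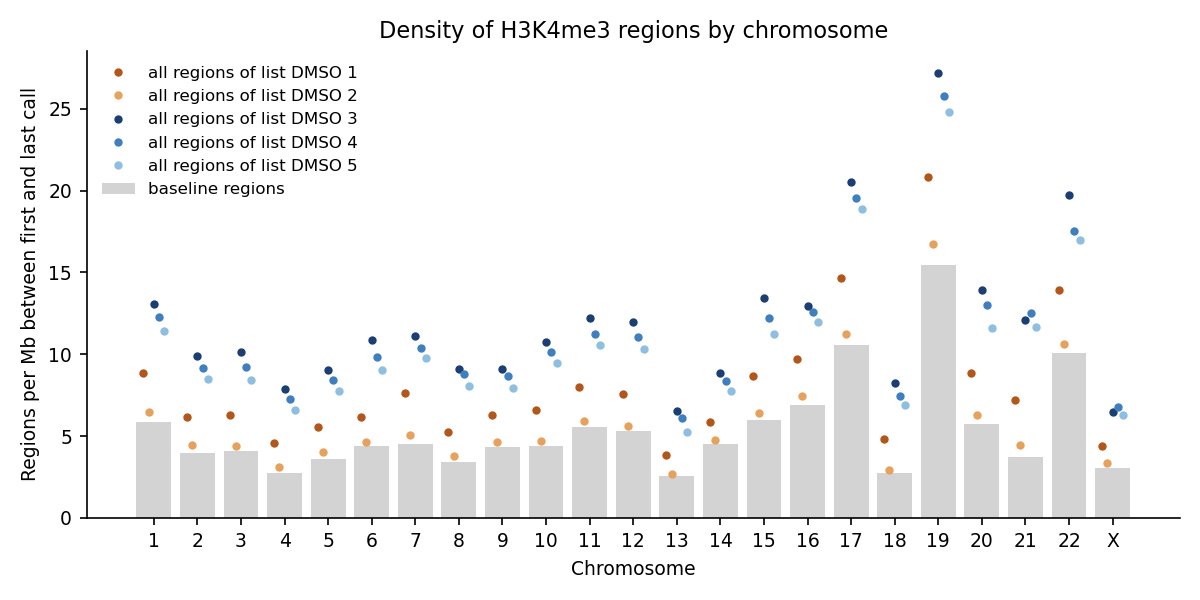
Regions per Mb between the first and last call (vertical axis) on chromosomes 1 to 22 and X, with grey bars for the 14097 baseline regions and 1 point per DMSO library for all regions of its list. Chromosome 19 is highest in the bars (15.5) and in all 5 lists, and chromosome 13 has the lowest bar (2.59).

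Dense chromosomes mostly kept more of their merged regions in the baseline set. The share called in all 5 lists was 48.2% on chromosome 19 and 43.1% on chromosome 17. Chromosome 14 was an exception, with 45.6% at 4.54 regions per Mb, below the value for all chromosomes. The share was lowest on chromosome 21 with 21.4% and chromosome 18 with 24.9%. Across the 23 chromosomes, Spearman's rho between density and this share was 0.74, which is a description, since both rest on the same calls. Chromosome 19 packed its regions closely, with a median nearest distance of 17.1 kb and a neighbour within 5 kb for 15.4% of them, next to 14.3% on chromosome 6.

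Widths varied little between chromosomes in the mean but not alike in all libraries. The median mean width ran from 1105 bp on chromosome 19 to 1323 bp on chromosome 21. Chromosome 14 had 1123 bp and chromosome X 1160 bp. Both lay furthest below the whole set in DMSO 1 and 2. Chromosome 14 had medians of 916 and 694 bp there, against 1029 and 826 bp over all chromosomes, and chromosome X had 959 and 711 bp. In DMSO 3 the medians were 1464 and 1470 bp, against 1460 bp in the whole set, and in DMSO 4 they were 1296 and 1299 bp, against 1336 bp. The 2 chromosomes parted in DMSO 5, with 1386 bp on chromosome 14 and 1322 bp on chromosome X, against 1374 bp. The inner share was lowest on the same chromosomes, with 71.0 ± 6.34% on X and 72.5 ± 4.29% on 14 (SD, n = 5), and 75.5 to 81.5% on all others.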

How the data were processed

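H3K4me3 chromatin immunoprecipitation sequencing of MM1S cells gave 1 list of called regions per library, and the 5 lists labelled DMSO were used. Trim Galore 0.40, Bowtie 1.1.2, MACS2 2.1.0, HOMER 4.8 and GRCh37 are named in the submitters' processing notes, without their settings or roles. The sources used here do not give an input control. Each deposited list has 15 columns without a header: positions, inner blocks and, for each region, the authors' fold enrichment, a ratio, with its p-value and q-value on a -log10 scale. The -log10 p-value was not used, and the deposited -log10 q-value served only in 1 alternative. Regions were called per library. Called widths and the length of a list depend on read depth and caller settings, neither of which is known, so values carry no counting interval.

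Regions were merged, and called widths, inner segments and distances measured, with Python 3.11.15, numpy 2.4.6 and pandas 2.3.3, after these steps were tested on simulated intervals. Apart from the choice of chromosomes, no region was left out for its position, such as in repeats or beside a centromere. A fold, width or share with an SD is over the 5 libraries. Named regions are the 20 widest, the 5 narrowest, the 5 with most segments, the 5 with the largest SD, the 5 most isolated, the 3 densest windows of 1 Mb and of 100 kb and the 3 longest stretches without a region. Members, measures and rules were chosen with earlier results of these data known. Alternatives were a -log10 q-value of at least 5, joining regions up to 1000 bp apart, calls in at least 4 lists, DMSO 3, 4 and 5 only, inner blocks of at least 200 bp, and leaving out each library. Sequences and genes are not reported, since no GRCh37 genome or annotation was used.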

Additional observations from a re-analysis of the deposited data

Results flagged for a closer look

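Each of 48 sets of 5 DMSO values (12 measures per library and 36 named regions) was searched for a single library whose gap to the nearest of the other 4 is large against the range of all 5. Chance marks about 5% of independent sets, but these measures are related and most of the regions were chosen by the same widths, so that rate does not apply here and the marks are a description. There were 6 marked values, and 5 of them were of DMSO 2. DMSO 2 had no inner segment in 4.05% of baseline regions, while the other libraries had none in 0.05 to 0.79%. It had at least 2 segments in 36.1% of the regions, against 51.0 to 53.3% in the others. The region at chr7:92462003-92466157 was called over 2737 bp in DMSO 2 and over 3928 to 4127 bp in the others. The region at chr4:149363009-149367082 had 2862 bp in DMSO 2 and 3742 to 4017 bp in the others. The region at chr1:149821599-149825092 had 1733 bp in DMSO 2 and 3101 to 3494 bp in the others. The remaining value was the median of the authors' fold enrichment over the whole list, which was 3.10 in DMSO 1 and 2.83 to 2.90 in the others.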

How the results depend on the processing

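With DMSO 3, 4 and 5 only, there were 24157 regions, 192 of them of 3000 bp or more, 10.0% had a neighbour within 5 kb, 38.4% had at least 2 segments, 6.90% had none, and chromosome 19 was 2.69 times as dense as the whole. With a -log10 q-value of at least 5 there were 1683 regions and 14 wide ones, with 1.96%, 58.0% and a ratio of 4.77 for the neighbours, the regions of at least 2 segments and chromosome 19. The median of that value over a list ran from 4.32 in DMSO 2 to 7.00 in DMSO 1. The cut therefore took unlike shares of the lists. Calls in at least 4 lists gave 9.94% with a neighbour and 2.92% without a segment. Joining regions up to 1000 bp apart gave 7.69% with a neighbour. Inner blocks of at least 200 bp gave 40.0% of regions with at least 2 segments and 3.22% with none. Leaving out 1 library gave 40 to 109 wide regions and 8.60 to 9.74% with a neighbour. The cause of these shifts was not tested, beyond fewer lists or fewer regions entering. The median width and the inner share moved by less than 1 SD under every alternative run on them. Leaving out DMSO 2 raised the share of regions without a segment to 2.49%, in a set of 17020 regions. From DMSO 3, 4 and 5 alone, the mean width of chr2:92317784-92326058 was 576 bp in place of 3464 bp, that of chr16:46419506-46425246 was 666 bp in place of 2380 bp, that of chr7:56438180-56442418 was 947 bp in place of 2249 bp, that of chr2:92305570-92310959 was 694 bp in place of 2107 bp, and that of chr5:90675267-90680247 was 4178 bp in place of 2753 bp. Of the 36 named regions, 35 moved by less than 1 SD after joining, and 28 moved by more when inner segments were measured. No paired analysis was possible because 1 group was described and no comparison was made.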

Other observations

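A small group of baseline regions ran against the general order of the libraries. In 110 regions (0.78% of the set), on 20 chromosomes, DMSO 1 and 2 were both wider than each of DMSO 3, 4 and 5. The group is defined by these widths, so its medians of 993, 877, 405, 398 and 465 bp in DMSO 1 to 5 are a description. In 26 of them the narrower of DMSO 1 and 2 was at least 2 times as wide as the widest of the other 3. Their places were uneven. They were 15 of the 620 baseline regions of chromosome 16 (2.42%), 14 of 609 on chromosome 9 (2.30%), 10 of 592 on chromosome 10 (1.69%) and 11 of 971 on chromosome 2 (1.13%). Chromosome 1, with 12 of 1458 (0.82%), was close to the share in the whole set, and chromosomes 3, 12, 14, 20 and X held 1 each. Within 1 Mb of the ends of the 3 longest stretches without a baseline region lay 44 regions of the set, and 17 of these were in the group.

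Several of the 110 stood side by side. At chr16:46000001-47000000, 7 of 14 baseline regions belonged to the group, and all 7 lay between 46385840 and 46435577. The first of these, from 46385840 to 46387571, is the first baseline region after the stretch on that chromosome and had 1637 and 1606 bp in DMSO 1 and 2 against 937, 902 and 1040 bp in DMSO 3, 4 and 5. The region from 46403367 to 46408517 had 4905 and 4915 bp against 1616, 1150 and 1979 bp, and that from 46432181 to 46435577 had 3357 and 3362 bp against 241, 248 and 264 bp. In the last 2, DMSO 1 and 2 agree to within 10 bp of each other. At chr2:92000001-93000000 the group held 5 of 6 baseline regions, at chr10:42000001-43000000 it held 7 of 12, and at chr9:66000001-67000000 it held 4 of 6. Among the 107 baseline regions whose width had an SD of 1000 bp or more, 12 were of this kind, 92 had DMSO 1 and 2 both narrower than the rest, and 3 were neither. These windows and regions were chosen after their values were seen, and the part that the libraries' differences in list length have in them was not tested.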
